A study of Homo sapiens with 4 samples.

Results

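The genes AURKA, CSTF1, CASS4, RTF2 (also called RTFDC1), FAM209A and FAM209B lie below TFAP2C on the long arm of chromosome 20. They were taken as 1 region of 35 bins of 5 kb, at 54,940,001 to 55,115,000 (175 kb, GRCh37), out of 11825 bins of the chromosome with a count in any library. A fixed rule gave AURKA and CSTF1 together the block 54,940,001 to 54,980,000, CASS4 54,985,001 to 55,035,000 and RTF2 55,040,001 to 55,095,000. FAM209A took 55,095,001 to 55,105,000 and FAM209B 55,105,001 to 55,115,000, and 1 bin on each side of CASS4 belonged to no block. These extents were not checked against a GRCh37 annotation, so exons, introns and UTRs inside the bins are not told apart.

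UMI-4C starts from a selected piece of DNA, the bait, and counts the pieces joined to it by ligation in fixed nuclei. Libraries came from the H9 line of human embryonic stem cells, made into surface ectoderm by 7 days with 1 uM retinoic acid (RA) and 5 ng/ml BMP4. There were 2 wild-type and 2 p63-/- (p63-null) libraries, and both genotypes had the same treatment. How p63 was removed, and whether the duplicates were separate cultures or the null cells 1 clone, is not given in the sources used here, so a p-value here reflects only how these libraries vary, and that variation may be technical. Contacts do not show the cell type or the genotype, and neither label was checked.

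TFAP2C, an AP-2 family transcription factor of early ectoderm, and the p63 transcription factor, which stratified epithelia require, both act in surface ectoderm. A gene's neighbours are met by its fragment partly because they lie close on the chromosome, and contact frequency falls with distance in all chromatin. The genes of the region differ in role. AURKA encodes the Aurora A kinase of centrosomes and mitotic spindles, CSTF1 a subunit of the cleavage stimulation factor that helps form mRNA 3' ends, and CASS4 an adhesion scaffold protein of the Cas family. RTF2 encodes a replication termination factor that is removed from stalled forks, and FAM209A and FAM209B encode closely related membrane proteins of the testis.

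DpnII, the enzyme used, cuts at GATC, so the letters of a locus decide where a contact can be ligated, and near-identical copies limit where a read can be placed. The promoter table of RefSeq (GRCh38.p14) held 4 of the 6 genes, without AURKA and CASS4. The FAM209 pair is shown because the copies are so alike: over 220 aligned positions of the 250 bases before each start, 95.9% were identical. Capitals mark the longest stretch of 63 bases that both share letter for letter. It covers bases 84 to 146 of the FAM209A sequence and 115 to 177 of the FAM209B sequence, counted from the 5' end.
FAM209A: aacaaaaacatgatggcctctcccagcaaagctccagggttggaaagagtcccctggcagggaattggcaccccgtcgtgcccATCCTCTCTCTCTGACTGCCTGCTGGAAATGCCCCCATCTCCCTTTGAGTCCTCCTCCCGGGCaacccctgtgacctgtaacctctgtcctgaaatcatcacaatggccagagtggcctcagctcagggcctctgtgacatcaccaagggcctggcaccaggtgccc
FAM209B: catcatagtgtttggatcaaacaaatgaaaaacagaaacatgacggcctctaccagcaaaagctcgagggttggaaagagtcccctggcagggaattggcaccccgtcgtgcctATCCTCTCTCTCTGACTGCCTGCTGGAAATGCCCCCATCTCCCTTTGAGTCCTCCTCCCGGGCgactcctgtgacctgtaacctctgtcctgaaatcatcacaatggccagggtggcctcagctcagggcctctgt
These lie at chr20:56524494-56524743 and chr20:56532996-56533245 of GRCh38.p14, plus strand, a build other than that of the contacts.

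The sequence before RTF2 and the short stretch between the starts of AURKA and CSTF1, which are transcribed away from each other, are shown because the results below turn on these blocks.
RTF2: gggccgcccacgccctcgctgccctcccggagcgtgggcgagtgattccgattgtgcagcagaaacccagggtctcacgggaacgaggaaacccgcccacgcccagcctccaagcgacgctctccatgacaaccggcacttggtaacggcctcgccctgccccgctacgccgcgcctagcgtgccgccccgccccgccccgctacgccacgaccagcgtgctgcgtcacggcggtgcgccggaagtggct
AURKA-CSTF1: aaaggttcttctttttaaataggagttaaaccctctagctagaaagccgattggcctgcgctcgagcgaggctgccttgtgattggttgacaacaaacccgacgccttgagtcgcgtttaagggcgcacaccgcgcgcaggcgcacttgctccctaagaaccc
They lie at chr20:56468377-56468626 (250 bases) and chr20:56392216-56392378 (163 bases) of GRCh38.p14, plus strand. Neither holds GATC, nor does the FAM209A sequence, and the FAM209B sequence holds 1, beginning at base 15. GATC is its own reverse complement, so both strands were searched at once. It occurred in 35.8% of the 35116 promoters of the table over the same 250 bases. The contacts were counted in bins of 5 kb, which hold sequence well beyond these windows.

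The baits were the bins at 55,200,001 to 55,205,000 (the TFAP2C bait), 55,380,001 to 55,385,000 (the middle bait) and 55,420,001 to 55,425,000 (the upper bait). The region lay 90 to 260 kb below the TFAP2C bait, 270 to 440 kb below the middle bait and 310 to 480 kb below the upper bait. Libraries held 16744 to 44199 contacts on chromosome 20. Bait bins took part in 26.4 and 27.9% of the contacts between different bins in wild-type replicates 1 and 2, but in 16.7 and 13.4% in p63-null replicates 1 and 2. Values below are therefore shares of a bait's own contacts between 10 kb and 1 Mb, of which the TFAP2C bait had 215 to 464 per library, the middle bait 90 to 213 and the upper bait 236 to 610. Scaled to all between-bin contacts instead, log2 fold changes of p63-null over wild-type over the tested windows shifted by a median of -0.83 for the TFAP2C bait, -1.17 for the middle bait and -1.13 for the upper bait.

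The TFAP2C bait met the region 24 and 8 times in wild-type replicates 1 and 2, and 12 and 43 times in p63-null replicates 1 and 2. These were 5.17% (Wilson 95% interval 3.50 to 7.58) and 3.40% (1.73 to 6.57) of its contacts in the wild-type pair, and 5.58% (3.22 to 9.50) and 13.0% (9.82 to 17.1) in the p63-null pair. Both p63-null shares lay above both wild-type shares, but p63-null replicate 1 exceeded wild-type replicate 1 by little and p63-null replicate 2 stood far above the other 3 libraries. The means were 4.29% ± 1.25 and 9.31% ± 5.27 (SD, n = 2 each). The difference of 5.02 percentage points had a two-sided exact permutation p of 0.33, the smallest that 2 against 2 libraries allow. The groups overlapped under 2 other ways of counting, each with an exact permutation p of 0.67. With each bin counted once the shares were 10.6 and 4.82% against 8.33 and 16.4%, and as parts of all between-bin contacts they were 0.286 and 0.164% against 0.175 and 0.351%.

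**Figure D1:**
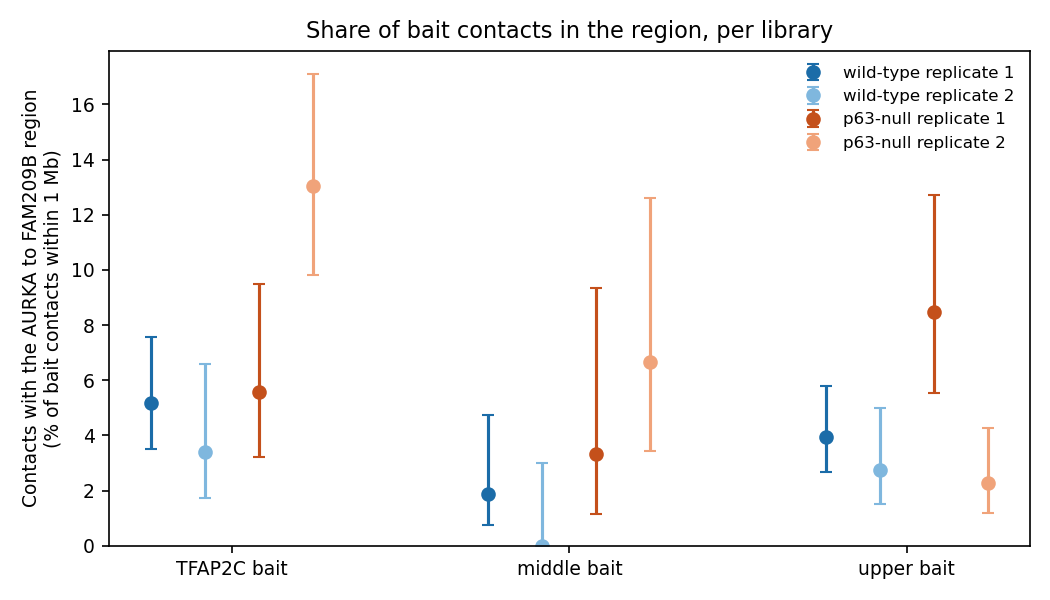
Share of each bait's contacts within 1 Mb (%) that fell in the AURKA to FAM209B region, 1 point per library, with Wilson 95% intervals that cover counting error only. For the TFAP2C bait p63-null replicate 2, at 13.0%, stands apart, and for the upper bait p63-null replicate 1, at 8.47%.

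Fitted together with the rest of the window in tiles of the same 175 kb, the region had a log2 fold change of 1.11 (SE 0.85, 95% interval -0.87 to 3.08) and did not pass edgeR's quasi-likelihood test (adjusted p 0.460 over 8 tiles, 0.285 to 0.838 over the alternatives). Leaving out p63-null replicate 2 gave 0.34, and it was 0.22 with all between-bin contacts as library size. Both p63-null libraries were above both wild-type libraries in 50% of the 8 tiles, so the region was not alone in this. The test called 12.5% of the tiles, which was 1 tile and not the region: the one just below it, at 54,765,001 to 54,940,000. It held 2 and 1 contacts in the wild-type pair, against 7 and 8 in the p63-null pair, a log2 fold change of 2.60 (SE 0.55, edgeR adjusted p 0.0142). Only 18 contacts lie behind it, and its SE, derived from the test, can fall below counting error at so few contacts. The adjusted p became 0.435 and 0.672 without wild-type replicate 1 or 2, 0.199 with DESeq2, 0.338 without the filter and 0.103 with all between-bin contacts as library size, and ranged from 0.00398 to 0.672 over the alternatives. The tile above the region, which holds the TFAP2C bait, took 24.3 to 27.6% of the contacts in every library (log2 fold change 0.11, SE 0.20, edgeR adjusted p 0.816).

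By the likeness of their shares over the 4 libraries, the tiles nearest to the region were that tile, at 55,115,001 to 55,290,000, and the tile at 55,640,001 to 55,815,000. The Euclidean distances of the scaled profiles were 0.245 and 0.249. The second held 37, 8, 12 and 22 contacts, wild-type before p63-null. This is a description over 4 libraries.

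RTF2 held 44 of the 87 contacts that the TFAP2C bait made in the region. It was met 10 and 6 times in the wild-type pair, against 11 and 17 times in the p63-null pair. As shares these were 2.16 and 2.55% in the wild-type pair, and 5.12 and 5.15% in the p63-null pair, means of 2.35% ± 0.28 and 5.13% ± 0.025 (SD, n = 2 each). The groups did not overlap, and the gap between them was larger than the gap within either. Single-library Wilson intervals, 1.17 to 5.46% over the wild-type and 2.88 to 8.93% over the p63-null libraries, did overlap.

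The edgeR log2 fold change of RTF2 was 1.13 (SE 0.36, 95% interval 0.20 to 2.07), with an unadjusted p of 0.0267 and an adjusted p of 0.494 over the 22 blocks and 50 kb tiles tested, so it did not pass. Adjusted p ranged from 0.221 to 0.939 over the alternatives. The log2 fold change lay between 0.99 and 1.24 when 1 library was left out, and was 0.30 with all between-bin contacts as library size. With each bin counted once per library, the RTF2 shares were 3.79 and 2.41% in the wild-type pair and 6.94 and 6.25% in the p63-null pair. As parts of all between-bin contacts they were 0.119 and 0.123% against 0.161 and 0.139%. The block kept both p63-null libraries above both wild-type libraries on each of these scales (exact permutation p 0.33 each). The same RTF2 contacts lie behind each scale, and these share settings were added after the data were seen. They are therefore not separate support. The shares of a bait add up to a fixed whole, so a higher share here goes with lower shares elsewhere in that library.

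**Figure D2:**
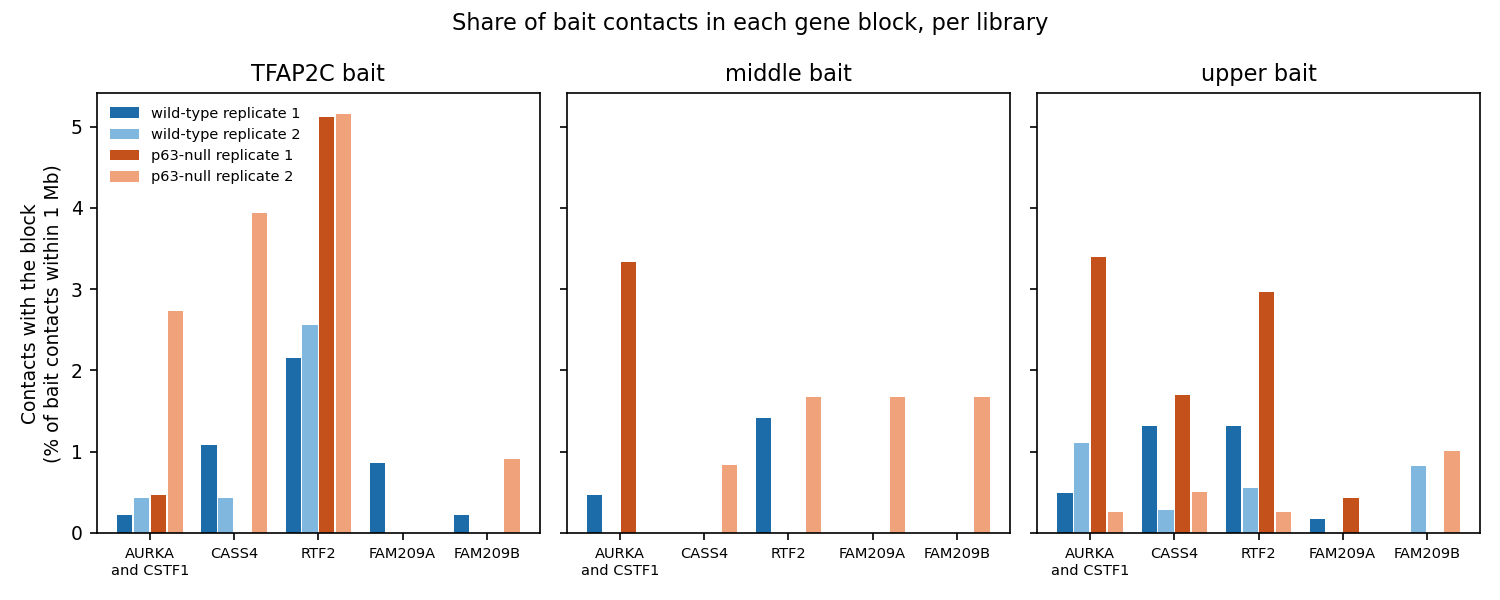
Share of each bait's contacts within 1 Mb (%) in the 5 gene blocks, 1 bar per library, for the 3 baits. RTF2 with the TFAP2C bait is the block where both p63-null bars (5.12 and 5.15%) stand above both wild-type bars (2.16 and 2.55%) by more than replicates differ. With 2 libraries per group, that replicate difference is poorly known.

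AURKA and CSTF1, the farthest block at 225 to 260 kb, were met 1 and 1 times in the wild-type pair, against 1 and 9 times in the p63-null pair. The shares were 0.216 and 0.426% against 0.465 and 2.73%, so p63-null replicate 2 carried nearly the whole difference. The log2 fold change of 2.34 (SE 1.39, 95% interval -1.31 to 5.98) did not pass (edgeR adjusted p 0.494, 0.531 to 0.956 over the alternatives). It was 1.50 with all between-bin contacts as library size and 3.07 without p63-null replicate 1. Without p63-null replicate 2 the block fell under the minimum of 10 contacts and was not tested.

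CASS4 was met 5 and 1 times in the wild-type pair, against 0 and 13 times in the p63-null pair. Its shares were 1.08 and 0.426% against 0 and 3.94%, with the 0 of 215 contacts in p63-null replicate 1 allowing up to 1.40%. The p63-null libraries lay on either side of the wild-type ones. The log2 fold change was 1.34 (SE 1.59, 95% interval -2.82 to 5.50; edgeR adjusted p 0.670, 0.669 to 0.956 over the alternatives). It was 0.43 with all between-bin contacts as library size, 0.63 with the replicate block, 2.15 without wild-type replicate 1 and 2.21 without p63-null replicate 1. Without p63-null replicate 2 the block was under the minimum.

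The FAM209 blocks had too few contacts to be tested. FAM209A was met 4 times in wild-type replicate 1, all in 1 bin, and 0 times in the other 3 libraries, where 0 contacts allow up to 0.909 to 1.40%. FAM209B was met 1 and 0 times in the wild-type pair, against 0 and 3 times in the p63-null pair. These blocks lie nearest to the bait, at 90 to 105 kb, and each spans 2 bins. Pairs within a single bin, a readout that needs no bait, numbered 3, 0, 0 and 3 in FAM209A and 5, 3, 3 and 4 in FAM209B, in the same order of libraries. That was 3.0 per bin in FAM209A over the 4 libraries, against 7.5 in FAM209B and 6.46 over the region. The part of the shared sequence shown above in these values was not tested.

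Of the 5 blocks, 3 passed the minimum of 10 contacts for the TFAP2C bait. Both p63-null libraries were above both wild-type libraries in AURKA and CSTF1 and in RTF2, against 22.7% of the 22 blocks and tiles tested, a count that includes these blocks. For AURKA and CSTF1 both wild-type libraries and p63-null replicate 1 had 1 contact each. Their order there follows only the bait totals of 464, 235 and 215. So few blocks do not show more such cases than among all those tested. None of the 22 passed the edgeR test (0%). At an unadjusted p under 0.05 there was 1, which was RTF2, and DESeq2 called 0 with 0 at an unadjusted p under 0.05. Per bin, RTF2 took 3.40 ± 1.47 of every 1000 bait contacts (SD, n = 4 libraries of both genotypes), FAM209B 1.41 ± 2.15, CASS4 1.36 ± 1.78, AURKA and CSTF1 1.20 ± 1.48 and FAM209A 1.08 ± 2.16. The blocks after RTF2 in this order did not differ beyond their spread, and the highest library of each exceeded the lowest RTF2 library. The place of RTF2 rests on the p63-null pair, at 4.65 and 4.68. In the wild-type pair RTF2 stood at 1.96 and 2.32 and FAM209A at 4.31 and 0.

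Within the region the TFAP2C bait met 29 of the 35 bins, of which 17 were met in a single library and 0 in all 4. The bins with the most contacts were at 55,050,001 to 55,055,000 and 55,085,001 to 55,090,000, both in RTF2. The first had 2 and 5 contacts in the wild-type pair, against 0 and 2 in the p63-null pair, and the second 1 and 0 against 4 and 2. Next came 55,025,001 to 55,030,000 in CASS4 (1 and 0 against 0 and 5) and 55,055,001 to 55,060,000 in RTF2 (0 and 1 against 1 and 4). The bin at 54,975,001 to 54,980,000, at the upper end of the AURKA and CSTF1 block, had 0 and 1 against 1 and 2. The contacts of RTF2 thus fell on different bins in different libraries, while its share was close between replicates. The p63-null shares of 5.12 and 5.15% had Wilson intervals of 2.88 to 8.93% and 3.24 to 8.09%. They lay closer together than counting error would lead one to rely on, so this closeness does not measure replicate spread.

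**Figure D3:**
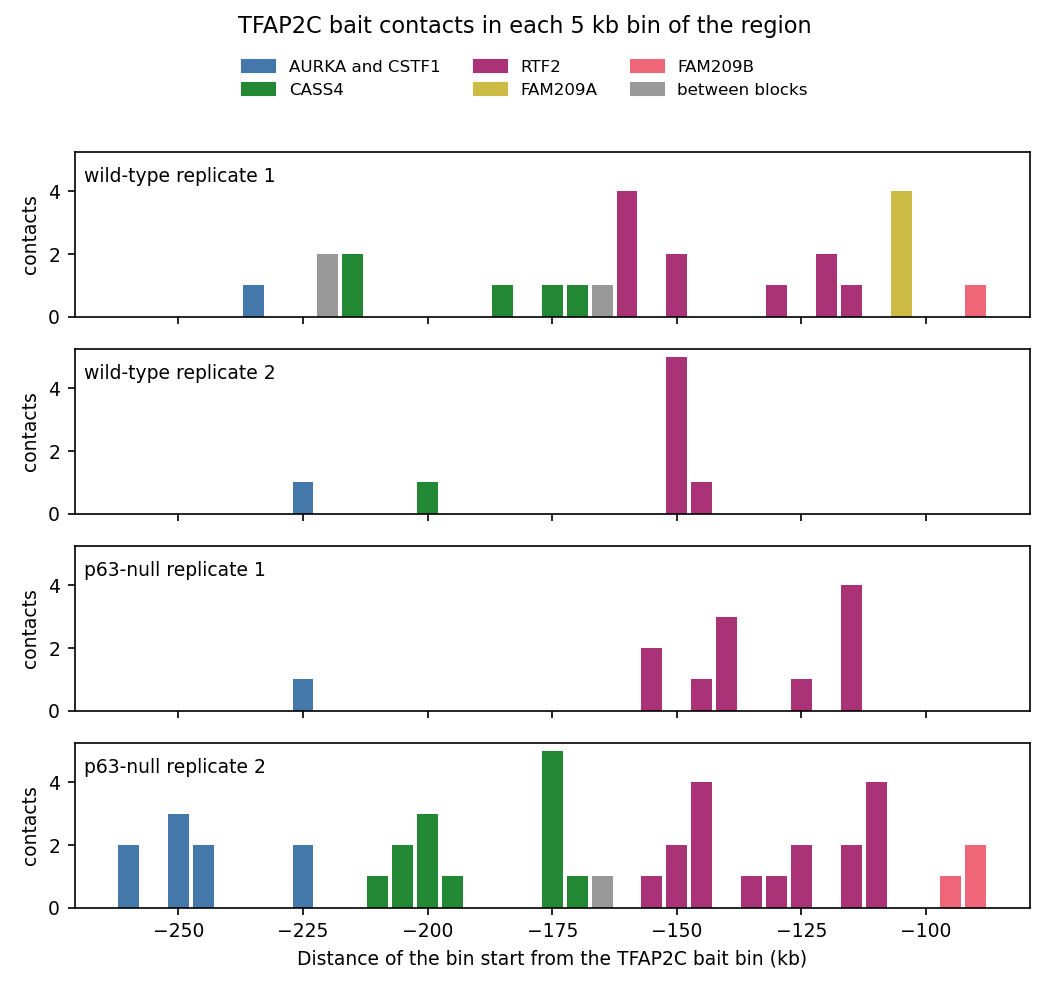
Contacts of the TFAP2C bait in each 5 kb bin of the region by distance from the bait (kb), 1 panel per library, with bars coloured by gene block. RTF2 bins hold contacts in all 4 libraries, AURKA, CSTF1 and CASS4 bins mostly in p63-null replicate 2, and FAM209A bins in wild-type replicate 1.

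To set distance aside, the region was compared with its mirror image at the same distances above the TFAP2C bait. The mirror held 114 and 76 contacts in the wild-type pair, against 42 and 63 in the p63-null pair, more than the region in every library. The region made up 17.4% (Wilson interval 12.0 to 24.6) and 9.52% (4.91 to 17.7) of both together in the wild-type pair, and 22.2% (13.2 to 34.9) and 40.6% (31.7 to 50.1) in the p63-null pair. The lean was thus towards the upper side in each library, with the highest part for the region in p63-null replicate 2. The means were 13.5% ± 5.56 and 31.4% ± 13.0 (SD, n = 2 each; exact permutation p 0.33). The mirror includes the middle and upper bait bins. Together with the bins beside them they gave 23, 22, 9 and 26 of its contacts. With those bins and the bins opposite them in the region both left out, the parts were 16.5 and 11.5% against 25.0 and 49.3%. With each bin counted once they were 31.1 and 16.7% against 30.0 and 47.7%, and the groups overlapped (exact permutation p 0.67).

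**Figure D4:**
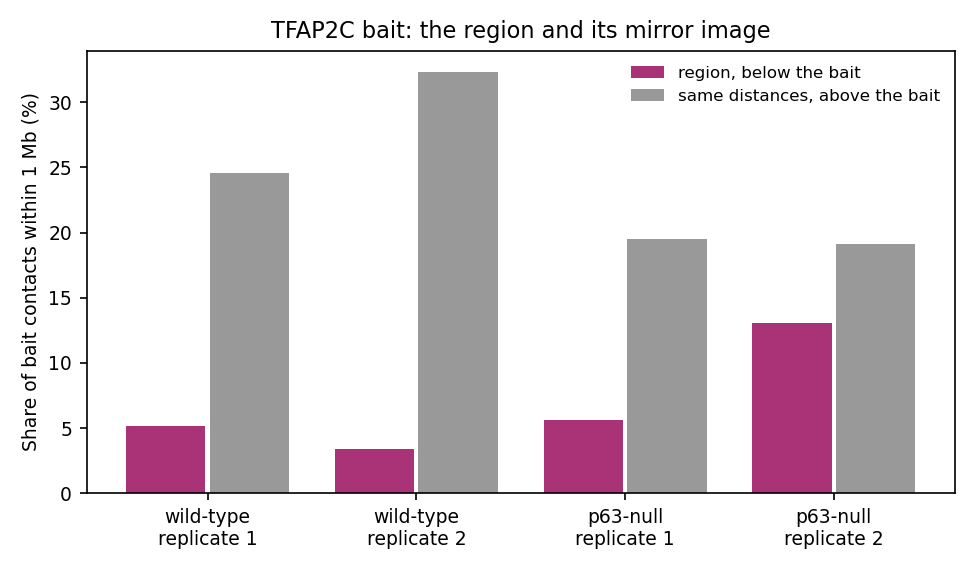
Share of TFAP2C bait contacts within 1 Mb (%) in the region and in its mirror image at the same distances above the bait, for each library. The mirror bar is higher in every library, and the bars come closest in p63-null replicate 2 (13.0 against 19.1%).

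Beyond 1 Mb of the TFAP2C bait, with the single highest bin left out, the mean density would put 0.43 to 0.78 contacts in a region of this size per library, against the 8 to 43 counted. For RTF2 it would put 0.13 to 0.24 contacts against 6 to 17. Contact frequency falls with distance, so a window this close to the bait is above that density for its distance alone. The comparison cannot show whether the region or RTF2 is met in particular.

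The upper bait showed another order of libraries. It met the region 24 and 10 times in the wild-type pair, against 20 and 9 times in the p63-null pair. The shares were 3.93% (Wilson interval 2.66 to 5.79) and 2.75% (1.50 to 5.00) in the wild-type pair, and 8.47% (5.55 to 12.7) and 2.27% (1.20 to 4.26) in the p63-null pair. Here p63-null replicate 1 was highest and p63-null replicate 2, the highest for the TFAP2C bait, was lowest.

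The means for the upper bait were 3.34% ± 0.83 and 5.37% ± 4.39 (SD, n = 2 each; exact permutation p 1.0). Among the 8 tiles the region's log2 fold change was 0.59 (SE 0.81, 95% interval -1.13 to 2.31; edgeR adjusted p 0.777, 0.616 to 0.961 over the alternatives). Leaving out p63-null replicate 1 turned it to -0.58, and leaving out p63-null replicate 2 gave 1.31. With all between-bin contacts as library size it was -0.51. The edgeR test called 0% of the 8 tiles, with 1 at an unadjusted p under 0.05, and DESeq2 called 0 with 0. Both p63-null libraries were above both wild-type libraries in 12.5% of the tiles, and the region was not among them.

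For the upper bait AURKA and CSTF1 had 3 and 4 contacts in the wild-type pair against 8 and 1 in the p63-null pair, CASS4 8 and 1 against 4 and 2, and RTF2 8 and 2 against 7 and 1. All 8 contacts of AURKA and CSTF1 in p63-null replicate 1 lay in the bin at 54,940,001 to 54,945,000, which had 1 contact in wild-type replicate 1 and 0 in the remaining libraries. The bin at 55,090,001 to 55,095,000 in RTF2 had 4 and 2 against 3 and 0 contacts. FAM209B had 0 and 3 against 0 and 4, all in the bin at 55,110,001 to 55,115,000, and FAM209A 1 and 0 against 1 and 0. The groups overlapped in all 5 blocks, while both p63-null libraries were above both wild-type libraries in 5% of the 20 blocks and tiles tested.

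The 3 blocks tested for the upper bait had log2 fold changes of 1.10 (AURKA and CSTF1), 0.27 (CASS4) and 0.59 (RTF2), each with an edgeR adjusted p of 0.979 and standard errors of 1.67 to 2.01. None of the 20 blocks and tiles of this bait passed (0%), with 0 at an unadjusted p under 0.05, and DESeq2 gave 0 and 0. The mirror image of the region held 20 and 38 against 14 and 13 contacts, and no bait bin lies in it. The region made up 54.5 and 20.8% of both in the wild-type pair and 58.8 and 40.9% in the p63-null pair (exact permutation p 0.67). The region thus outweighed its mirror image in 2 of the 4 libraries for this bait and in 0 of 4 for the TFAP2C bait. The mirror image of each bait is a different stretch of the chromosome, so these counts do not compare the baits on like sequence. For the middle bait the region held 4 and 0 contacts in the wild-type pair, against 10 and 9 in its mirror image. In the p63-null pair it held 3 and 8 against 7 and 2. The parts were 28.6 and 0% in the wild-type pair and 30.0 and 80.0% in the p63-null pair (exact permutation p 0.33). Differences between baits were not tested.

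The middle bait met the region 4 and 0 times in the wild-type pair, against 3 and 8 times in the p63-null pair. The shares were 1.88 and 0% against 3.33 and 6.67%, and the 0 of 124 contacts allows up to 2.42%. Both p63-null libraries were above both wild-type libraries (0.94% ± 1.33 and 5.0% ± 2.36, SD, n = 2 each; exact permutation p 0.33), which was so in 16.7% of its 6 tiles, the region alone. As parts of all between-bin contacts the shares were 0.0476 and 0% against 0.0438 and 0.0654%, and the groups overlapped. The edgeR test called 0% of these tiles, with 0 at an unadjusted p under 0.05, and DESeq2 called 0 with 1. The region had the smallest DESeq2 adjusted p of these tiles, 0.212, at a log2 fold change of 2.40. The edgeR log2 fold change of the region was 2.09 (SE 1.31, 95% interval -1.60 to 5.78), with an edgeR adjusted p of 0.526, and 0.212 to 0.737 over the alternatives. It rests on 15 contacts. Without p63-null replicate 2 the region fell under the minimum.

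For the middle bait RTF2 had 3 and 0 contacts in the wild-type pair against 0 and 2 in the p63-null pair, and AURKA and CSTF1 had 1 and 0 against 3 and 0. CASS4 (1 contact), FAM209A (2) and FAM209B (2) were met in p63-null replicate 2 alone. The bins with the most were 54,965,001 to 54,970,000 in AURKA and CSTF1 (1 and 0 against 2 and 0), 55,075,001 to 55,080,000 in RTF2 (2 and 0 against 0 and 1) and 55,095,001 to 55,100,000 in FAM209A (0 and 0 against 0 and 2). No block reached 10 contacts, and the groups overlapped in all 5, against 7.69% of the 13 tiles tested with both p63-null libraries above both wild-type libraries. None of its 13 tested tiles passed edgeR (0%, with 0 at an unadjusted p under 0.05), and DESeq2 called 0 with 1 at an unadjusted p under 0.05. Of the 35 bins, 7 were met by all 3 baits and 3 by none.

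Readouts that use no bait gave the coverage of the same genes. Pairs within 1 bin numbered 63 and 35 in the wild-type pair and 50 and 78 in the p63-null pair over the region, which were 0.310, 0.336, 0.238 and 0.255% of all such pairs. Both p63-null libraries were lower here, while their TFAP2C bait shares were higher. Whether coverage has a part in those shares was not tested. Among 343 tiles of chromosome 20 the log2 fold change was -0.36 (SE 0.23, 95% interval -0.81 to 0.08; edgeR adjusted p 0.799, 0.715 to 0.997 over the alternatives). None of the 343 tiles passed (0%), with 22 at an unadjusted p under 0.05, and DESeq2 called 0 with 2.

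Between-bin contacts without a bait had 39 and 17 ends in the region in the wild-type pair and 31 and 67 in the p63-null pair, or 0.316, 0.241, 0.272 and 0.316% of all such ends. Over the region as a whole the groups overlapped, and p63-null replicate 2 did not stand apart as it did for the TFAP2C bait. The log2 fold change was 0.06 (SE 0.26, 95% interval -0.49 to 0.61; edgeR adjusted p 0.947, 0.815 to 0.998 over the alternatives), and it turned to -0.08 without wild-type replicate 2 or without p63-null replicate 2. None of 343 tiles passed (0%), with 30 at an unadjusted p under 0.05, and DESeq2 called 0 with 4. Per bin over the 4 libraries, these ends were 4.13 in AURKA and CSTF1, 3.60 in CASS4, 4.73 in RTF2, 4.50 in FAM209A and 7.0 in FAM209B. By library, wild-type before p63-null, AURKA and CSTF1 had 6, 3, 5 and 19 ends, CASS4 12, 2, 11 and 11, and RTF2 14, 6, 12 and 20. FAM209A had 4, 4, 0 and 1, and FAM209B 1, 2, 1 and 10. All such ends numbered 12360, 7042, 11418 and 21184. Relative to these totals, p63-null replicate 2 was highest in AURKA and CSTF1 and in FAM209B, but not in CASS4, RTF2 or FAM209A. The blocks were not tested here.

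Outside the bait contacts, both ends lay in the region in 9 and 3 contacts of the wild-type libraries against 6 and 14 of the p63-null ones, and 5, 1, 4 and 11 of these joined adjacent bins. A further 8, 3, 6 and 22 contacts led from the region to bins within 1 Mb and 13, 8, 13 and 17 to bins beyond it. No such pair of bins was counted more than 2 times in any library. All between-bin contacts without a bait numbered 6180, 3521, 5709 and 10592. Relative to these totals, the contacts from the region to bins within 1 Mb were most frequent in p63-null replicate 2. Those to bins beyond 1 Mb were least frequent there. Neither was tested.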

How the data were processed

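Each deposited file gave, for chromosome 20, a whole-number count of contacts for every pair of 5 kb bins, which the values show to be unnormalized. HiC-Pro and Bowtie and the builds hg19 and GRCh37 are named, per the submitters' processing notes. Their versions, and whether PCR copies of the same molecule were merged, are not given in the sources used here. If copies were kept, 1 molecule could add many contacts to a bin, and Wilson intervals and the limits for 0 contacts (3 counts), which cover counting error only, would be too narrow.

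Groups followed the labels. The genes, blocks, baits and tests were chosen with earlier results of these data known. For each bait, contacts with the bait bin and with bins within 10 kb were left out, and contacts within 1 Mb were kept. Counts were summed into tiles of 175 kb laid from the region, or into the 5 blocks with 50 kb tiles around them. Sums of at least 10 contacts were tested with edgeR 4.0.16 (quasi-likelihood, two-sided, R 4.3.3) and Benjamini-Hochberg adjustment over all tiles of a bait, threshold 0.05. Fold changes carry 95% intervals based on edgeR's fitted degrees of freedom. Their SEs were derived from the log2 fold change and the F value of the quasi-likelihood test, not estimated separately. With few contacts these SEs, and the intervals built on them, can be narrower than counting error. Shares were compared with exact permutation tests (scipy 1.17.1). The bins named are the 5 with the most contacts for the TFAP2C bait and the 3 with the most for each other bait, and outside the region the tiles next to it and the 2 with the most similar profile. Alternatives included TMM, DESeq2 1.42.0, a replicate block, no filter, other denominators and leaving out each library. The tests were tried on simulated counts, with a fixed replicate spread not estimated from these libraries and no fold near that of the region or RTF2. The trial therefore does not show how the tests behave on these data. Over tiles, replicates of the TFAP2C bait differed by more than sampling noise, with a chi-square per degree of freedom of 2.75 for the wild-type pair and 4.11 for the p63-null pair. Replicates of the upper bait differed more, at 3.13 and 6.39 (chi-square p 0.0026 and 9.6e-07). For the middle bait the values were 1.92 and 1.64 (chi-square p 0.125 and 0.146). All libraries were kept as replicates.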

Additional observations from a re-analysis of the deposited data

How the results depend on the processing

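Depth was low, with 0 to 17 contacts of a bait per block and library. The mean differences of the TFAP2C and middle baits, and the within-bin one, kept their sign under every alternative that gave a value, but the groups came to overlap for the TFAP2C region share with each bin counted once or all between-bin contacts as denominator, for its mirror comparison with each bin counted once, and for the middle bait share with that denominator; a middle bait fold could not be given without wild-type replicate 1, where wild-type was left at 0, nor without p63-null replicate 2. For the upper bait the share difference of 2.03 percentage points was -0.063 with all between-bin contacts as denominator and -1.07 to 5.13 when 1 library was left out. Its region log2 fold change was -0.51 with that library size, with CASS4 at -0.81 and RTF2 at -0.49, and leaving out 1 library gave -0.58 to 1.31 for the region, -0.74 to 0.95 for CASS4 and -1.85 to 1.57 for RTF2. The part of region plus mirror moved from a difference of 12.2 to between -4.68 and 29.0 percentage points. Contact ends without a bait ranged from -0.077 to 0.31 on the log2 scale when 1 library was left out, and were -0.076 without wild-type replicate 2.

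The count of called 175 kb tiles of the TFAP2C bait, 1, was 0 with DESeq2, 0 without the filter, 2 with the replicate block, 3 with all between-bin contacts as library size, and 0 to 1 when 1 library was left out. That library size also called 3 tiles of the middle bait and 2 of the upper bait, and 6 of the 50 kb tiles of the middle bait, all lower in p63-null; none of these is the region or a block. The counts of called 175 kb tiles were added after the data were seen, as were the RTF2 share settings and the density beyond 1 Mb. With 2 pairs the replicate numbers do not establish a pairing: same-numbered libraries' deviations correlated at 0.321, 0.437 and -0.0727 for the 3 baits. With the replicate block the region's log2 fold changes were 1.00, 2.32 and 0.51 for the TFAP2C, middle and upper baits, and RTF2's was 1.12 for the TFAP2C bait. None of these passed.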
